A study of Mus musculus with 4 samples.

Results

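Hepatocytes are the parenchymal cells of the liver. Residual hepatocytes in these data are cell barcodes rich in hepatocyte RNA, from suspensions made to collect the non-parenchymal cells. Whether each held an intact cell was not tested. The barcodes were chosen by a rule on measured values. A cell barcode was kept when it held at least 500 unique molecular identifiers (UMIs, each standing for a captured RNA molecule), at least 300 genes and at most 15% UMIs of mitochondrial genes. It was called a hepatocyte when Alb, Apoa1, Ttr, Serpina1c, Fabp1 and Apoc3 together made at least 5% of its UMIs and when Ptprc, Stab2, Cd79a, Cd3e and Epcam, which mark leukocytes, sinusoidal endothelium, B cells, T cells and biliary epithelium, were all at 0. The rule found 1192 hepatocytes among 82905 filtered cells. They were 25 of 18436 cells in the 12-week chow library, 93 of 17225 in the 12-week MASH library, 829 of 27291 in the 24-week chow library and 245 of 19953 in the 24-week MASH library.

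The mice were male C57BL/6J, 8 weeks old when the diets began. Control mice ate regular chow for 12 or 24 weeks. Mice of the FAT-MASH model, in which metabolic dysfunction-associated steatohepatitis (MASH) is produced, were given a Western diet and sugar water holding fructose and glucose, with a low dose of carbon tetrachloride (CCl4) injected weekly, for the same times. Livers of all 4 groups stood overnight on ice, were digested with collagenase IV and DNase I and spun on a step of 25% and 70% Percoll, from whose interface the cells were taken, and red cells were lysed. Percoll is a density medium, and most hepatocytes are lost in such a step. Each group is 1 library by the 10x Genomics 5′ single-cell method, and the labels do not say how many mice it holds. With 1 library a group no difference has a replicate check. Intervals below are 95% counting intervals, which cover counting error only and not the spread between cells, mice or preparations.

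Hepatocytes make most plasma proteins, export fat as lipoproteins, store and burn fatty acids, form bile acids and urea, and detoxify foreign compounds. These tasks are divided along the lobule: cells around the central vein carry glutamine synthetase and drug metabolism, and cells around the portal vein carry gluconeogenesis and urea formation. In fatty liver disease hepatocytes hold lipid droplets, and CCl4 harms them after activation by the cytochrome P450 enzyme Cyp2e1 of the central zone. Some liver genes, such as those of the major urinary proteins, are kept high in male mice by pulses of growth hormone.

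Sequences are shown for the alpha-1 antitrypsin genes, since Serpina1e had far lower values in MASH than its close copies. Serpina1e (ENSMUSG00000072849) lies at chr12:103946931-103958975 on the minus strand of GRCm38, in a cluster with Serpina1a, Serpina1b, Serpina1c and Serpina1d, which all encode inhibitors of serine proteases released to plasma. The RefSeq (GRCm38.p6) windows from 250 bases before to 50 after the annotated start are given for Serpina1e and Serpina1b, on their own strand, with the letters GTTAAT, found in sites of the factor HNF1, in capitals.
Serpina1e, chr12:103956848-103957147, minus strand: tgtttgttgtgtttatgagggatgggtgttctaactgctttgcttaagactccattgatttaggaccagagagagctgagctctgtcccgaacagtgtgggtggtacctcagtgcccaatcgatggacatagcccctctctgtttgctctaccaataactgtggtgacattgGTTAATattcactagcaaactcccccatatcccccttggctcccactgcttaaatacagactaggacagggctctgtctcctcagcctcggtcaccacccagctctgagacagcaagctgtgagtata
Serpina1b, chr12:103738140-103738439, minus strand: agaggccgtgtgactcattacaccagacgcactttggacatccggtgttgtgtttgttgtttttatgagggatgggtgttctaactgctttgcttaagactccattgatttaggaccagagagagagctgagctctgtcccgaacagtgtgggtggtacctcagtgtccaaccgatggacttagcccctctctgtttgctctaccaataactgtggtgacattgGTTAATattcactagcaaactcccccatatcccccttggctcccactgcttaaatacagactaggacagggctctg
HNF1 is a transcription factor of hepatocytes. GTTAAT, searched on both strands, occurred 1 time in the window of each of the 5 genes and in 7.10% of 32851 windows of that length. Aligned over the stretch the windows share, Serpina1e was identical to Serpina1b at 97.6% of positions, to Serpina1d at 96.6%, to Serpina1a at 95.9% and to Serpina1c at 95.2%. The match is a description and not a measured binding site. Counts of near-identical genes are uncertain where a read fits several of them.

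Pooled over hepatocytes and scaled to CPM (the gene's UMIs over all gene UMIs, times 1000000), Serpina1e stood at 9482 in 12-week chow and 6335 in 24-week chow, against 110 in 12-week MASH and 51.1 in 24-week MASH. It was thus 85.9-fold lower in MASH at 12 weeks (ratio 0.0116, interval 0.00737 to 0.0176) and 124-fold lower at 24 weeks (ratio 0.00807, interval 0.00522 to 0.0119). A Serpina1e UMI was present in 68% and 94.3% of chow hepatocytes at 12 and 24 weeks and in 17.2% and 6.94% of MASH hepatocytes. The gene passed the 2-fold mark in the same direction under all alternatives that gave a value, with ratios from 0.00911 to 0.0214 at 12 weeks and from 0.00137 to 0.0282 at 24 weeks. The copies differed by much less. Serpina1b stood at 3119, 3488, 2077 and 2570 CPM in 12-week chow, 12-week MASH, 24-week chow and 24-week MASH, an order of libraries used for every run of 4 values below. Serpina1d stood at 1248, 1003, 818 and 564 CPM, and Serpina1a at 499, 902, 810 and 495. Serpina1c, a gene of the rule, stood at 1073, 1100, 961 and 389. At 24 weeks the ratio was 0.404 for Serpina1c (0.344 to 0.472), 0.611 for Serpina1a, 0.690 for Serpina1d and 1.24 for Serpina1b. Serpina1c was thus also past 2-fold lower at 24 weeks. In CPM, which for 5′ tags carries no length factor, Serpina1e was therefore the highest of the 5 in both chow libraries and the lowest in both MASH libraries. The free RNA of the suspension showed the same gap. In T-like cells, those with a UMI of both Ptprc and Cd3e, Serpina1e stood at 60.9, 1.14, 146 and 0.851 CPM.

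**Figure D1:**
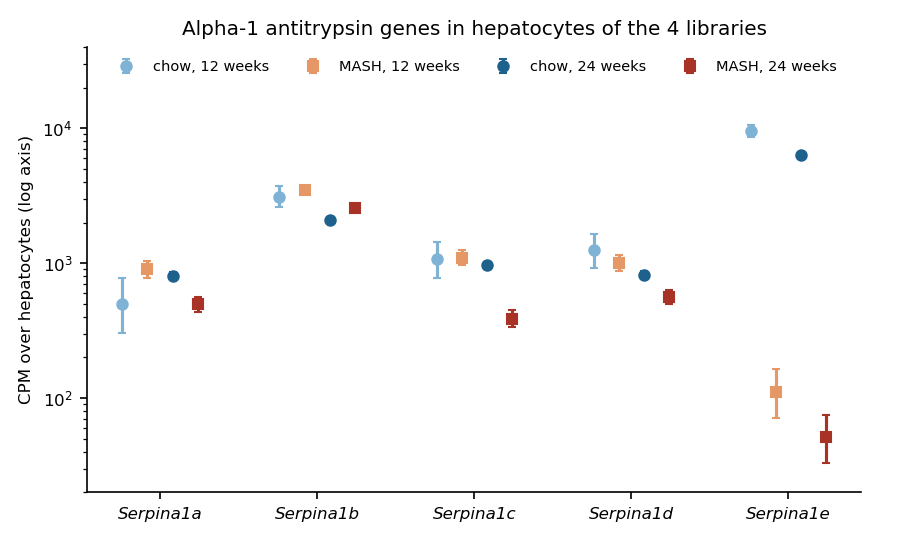
CPM over the pooled hepatocytes of each library (log axis) for the 5 alpha-1 antitrypsin genes, with exact Poisson 95% intervals. Serpina1e lies at 9482 and 6335 CPM in chow and at 110 and 51.1 CPM in MASH, while Serpina1b stays between 2077 and 3488 CPM.

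The columns were shallow and carried little mitochondrial and nuclear RNA, which bears on every value below. Their median depth was 817, 922, 960 and 1303 UMIs, against 2098 to 3495 in the other filtered cells of the same libraries. The deepest hepatocyte of the 12-week chow library held 31.1% of that library's hepatocyte UMIs, and the deepest of 12-week MASH held 24.9%. At 24 weeks these shares were 1.19% in chow and 3.83% in MASH. The median mitochondrial share was 0.0880%, 0.255%, 0.106% and 0.107%, against 2.43% to 3.15% in other cells. Malat1, a nuclear RNA, made 0.110%, 0.147%, 0.0653% and 0.0419% of hepatocyte UMIs, against 0.652% to 0.857% elsewhere. A single hashtag (an antibody barcode) was clear in 24%, 8.60%, 2.77% and 7.76% of hepatocytes. In other filtered cells it was clear in 46.7%, 44.4%, 29.8% and 42.9%. Whether a column held an intact cell was not tested.

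The name hepatocyte rests on the rule, and hepatocyte genes that the rule did not use were also counted. The 25 genes of a hepatocyte identity list, among them Trf (transferrin), Ahsg (fetuin A), the fibrinogen chains and Cps1 (carbamoyl phosphate synthetase), made 5.02%, 5.38%, 4.59% and 4.79% of hepatocyte UMIs. In the other filtered cells they made 0.214%, 0.0853%, 0.222% and 0.138%. Since these genes come from the cells the rule picked for hepatocyte RNA, the contrast is a description. Among the rule's own genes Fabp1, the liver fatty acid binding protein, made 3.46%, 3.51%, 5.01% and 4.91% of hepatocyte UMIs, and Alb (albumin) made 0.492%, 1.60%, 0.777% and 0.854%. Doublet calls were made with Scrublet in scanpy and marked 0, 0, 17 and 3 hepatocytes.

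Free hepatocyte RNA can give UMIs in any droplet, so hepatocyte genes were also counted in other columns. The 25 identity genes, without the 6 of the rule, made 0.0645%, 0.0465%, 0.113% and 0.0684% of the UMIs of T-like cells. Their share in hepatocytes was 77.9, 116, 40.8 and 70.0 times as high. In the 12-week MASH library, whose matrix also holds near-empty barcodes, it was 41.4 times that of 5531 columns of 10 to 99 UMIs. Since the rule picked columns for hepatocyte RNA, these excesses are descriptions and no test of free RNA. Among identity and rule genes together, 22, 24, 28 and 22 of 31 had a share of the list in hepatocytes within 2-fold of that in T-like cells. After every cell was thinned to 500 UMIs, Acaa1b, a peroxisomal thiolase gene, was seen in 60%, 72.0%, 23.3% and 79.6% of hepatocytes. In T-like cells thinned alike it was seen in 0.817%, 0.617%, 0.607% and 0.918%. Without thinning the shares were 84%, 84.9%, 41.3% and 89.8% of hepatocytes, at the median depths given above, and 3.95%, 3.56%, 3.77% and 5.10% of T-like cells, which held a median of 3400, 4984, 3903 and 4869 UMIs.

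Markers of other cell types were low but not absent. Of 8 T cell markers 4, 3, 8 and 6 were seen in the hepatocytes, at a summed level of 32.2 to 125 CPM over the 4 libraries, against 935 to 1578 CPM in other cells. B cell markers summed to 501 to 854 CPM against 10727 to 15638 CPM elsewhere. Stellate and fibroblast markers summed to at most 23.0 CPM, with Col1a1, Col1a2, Lrat, Reln and Colec11 at 0 in all 4 libraries. All 6 Kupffer cell markers were at 0 in both chow libraries, where the other cells held only 5.45 and 0.551 CPM of them. Erythroid markers reached 1945 CPM in 24-week MASH hepatocytes, and 91.3% of those UMIs lay in 1 cell. Cholangiocyte markers reached 156 CPM in 12-week MASH, with 73.5% in 1 cell. The part of these UMIs in the gene results was not tested.

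The share of hepatocytes was higher in MASH at 12 weeks and lower in MASH at 24 weeks, and at 12 weeks the direction depended on the minimum of the rule. Hepatocytes were 0.136% of filtered cells in 12-week chow (exact interval 0.0878% to 0.200%) and 0.540% in 12-week MASH (0.436% to 0.661%). The ratio was 3.98 (2.56 to 6.19). At 24 weeks they were 3.04% of cells in chow (2.84% to 3.25%) and 1.23% in MASH (1.08% to 1.39%), a ratio of 0.404 (0.351 to 0.466). With a minimum of 2% in place of 5%, the 12-week libraries held 801 chow and 295 MASH cells and the ratio was 0.394. With a minimum of 4% it was 1.48, and with 6% it was 12.6, from 4 chow and 47 MASH cells. At 24 weeks the ratio stayed between 0.404 and 0.477 for minimums of 1% to 8%. It was 1.74 at 10%, where 11 chow and 14 MASH cells remained and the interval, 0.790 to 3.83, included 1. Over cells with a single hashtag (an antibody barcode) it was 0.770 (0.420 to 1.41), from 23 chow and 19 MASH hepatocytes. With chow alone limited to hashtags 1 to 4 or 5 to 8 it was 3.18 or 7.95, from 18 or 5 chow hepatocytes. The share also depends on how many hepatocytes the Percoll step let through in each preparation, which cannot be told apart from the treatment.

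**Figure D2:**
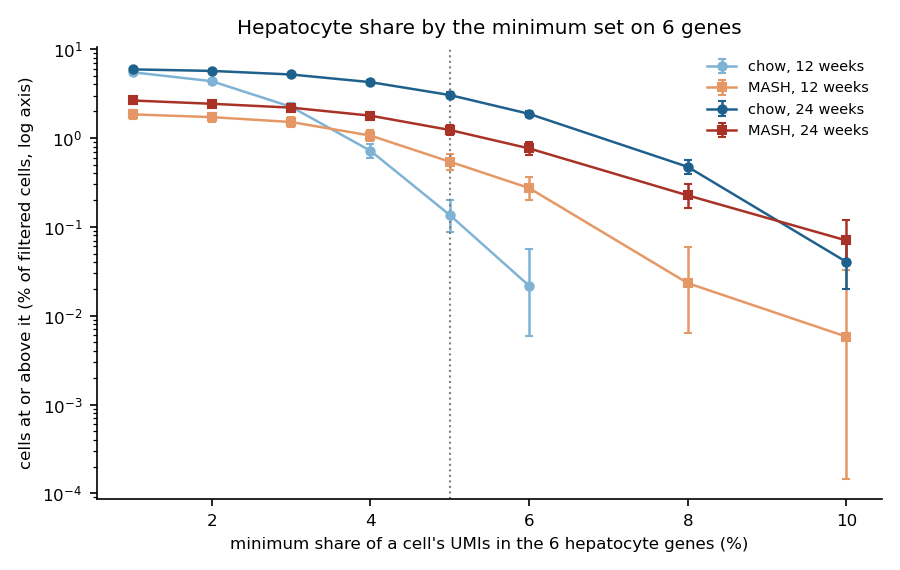
Share of filtered cells (log axis, exact 95% binomial intervals) in which the 6 hepatocyte genes reach a minimum share of UMIs, by library. Points with no cell are left out. At the 5% minimum of the rule (dotted line) the 12-week lines have crossed, while the 24-week chow line lies above the MASH line up to 8%.

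Cells on either side of the 5% minimum were similar in depth. In 12-week chow, 107 cells had 4% to 5% of their UMIs in the 6 genes and 21 had 5% to 6%, with median depths of 861 and 745 UMIs. In 24-week chow, 328 cells lay just outside and 320 just inside, with median depths of 952 and 1012 UMIs. In 12-week MASH there were 90 and 46 such cells and in 24-week MASH 110 and 93. The identity list made a larger share of UMIs just inside than just outside in both 12-week libraries (5.05% against 4.35% in chow, 4.21% against 4.13% in MASH). At 24 weeks the share was slightly smaller inside in both, 4.87% against 5.02% in MASH. The rule thus divides a continuous range of shares, and whether these columns form a separate cluster was not tested. Thinned to 500 UMIs, hepatocytes showed a median of 9, 9, 9 and 10 identity genes. In 24-week chow the median was 9 in cells under 1000 UMIs and 10.5 in the 8 of 5000 or more, and in 12-week MASH it was 9 and 13, the latter over 5 cells.

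Gene levels were compared between MASH and chow at each week over genes with at least 50 UMIs in the 2 libraries together, and a gene was counted when its ratio passed 2-fold. At 12 weeks the hepatocytes held 40074 UMIs in chow and 217301 in MASH, so a gene could reach the minimum there mainly through its MASH UMIs, and counts of higher genes are raised by that. At 12 weeks 98 of 797 genes were higher in MASH (12.3%) and 35 were lower (4.39%). At 24 weeks 239 of 3101 genes were higher (7.71%) and 115 were lower (3.71%), or 170 and 148 when the median ratio of all genes, 0.12 on the log2 scale, was set to 0. Among hepatocyte-leaning genes, those at least 3 times as high in hepatocytes as in other cells, 54 of 407 were higher at 12 weeks (13.3%) and 21 were lower (5.16%). At 24 weeks 130 of 996 were higher (13.1%) and 54 lower (5.42%). The counts of each list below are to be read beside these shares. Of 400 leaning genes measured at both weeks, 28 were past 2-fold higher at both and 6 past 2-fold lower at both. This was not counted over all genes or without the deepest cells. Several of the higher genes, among them Apob, Kng1, Ces1c, Rnase4 and Hp, had most 12-week MASH UMIs in 1 cell. Without the deepest hepatocyte of each library the 12-week counts over all genes were 50 higher and 21 lower, and the 24-week counts were 214 and 116. Hashtags are antibody barcodes whose meaning the labels do not state. With 24-week chow limited to its 18 hepatocytes of hashtags 1 to 4, the ratios of Apoa4 (1.16), Rgn (1.26), Kng1 (1.59), Fads2 (1.71), Ces1c (1.77), Gstm2 (1.86), S100a11 (1.89), Serpina3k (0.916) and Car3 (0.668) lay within 2-fold.

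Male-biased genes were lower in MASH hepatocytes, most of all at 24 weeks. Of 17 genes on this list, which holds Serpina1e, 9 had enough UMIs at 24 weeks, of which 7 were at least 2-fold lower and none higher, with a median log2 ratio of -3.01. Mup7, Mup1 and Mup3 encode major urinary proteins, which carry pheromones in male urine. Mup7 stood at 1372, 529, 708 and 2.04 CPM. That is 1 UMI in 24-week MASH hepatocytes against 773 in 24-week chow, a ratio of 0.00289 (interval 7.3e-05 to 0.0161). At 12 weeks its ratio was 0.386, or 0.627 without the deepest cells. Hsd3b5, a steroid dehydrogenase gene, had 12, 7, 142 and 0 UMIs and so was at least 21.2-fold lower at 24 weeks, counted against the level of 3 UMIs. Mup1 had 0, 3, 55 and 0 UMIs and was at least 8.22-fold lower at 24 weeks. Elovl3, a fatty acid elongase gene, stood at 474, 166, 115 and 14.3 CPM and was lower at both weeks (ratios 0.349 and 0.124). Selenbp2, a selenium binding protein gene, stood at 349, 138, 659 and 117 CPM (0.177 at 24 weeks). Mup20 and Cyp2d9 did not follow. Mup20 stood at 1223, 1855, 807 and 957 CPM, with ratios of 1.52 and 1.19. Cyp2d9, a cytochrome P450 gene, had a ratio of 0.913 at 24 weeks. Mup14, which was not on the list, stood at 200, 207, 295 and 8.18 CPM and was 36.1-fold lower at 24 weeks. At 12 weeks 3 of 5 measured members were lower, with a median of -1.37, or -0.48 over 4 members without the deepest cells. Of other genes of the growth hormone axis, Ghr, its receptor, stood at 374, 318, 182 and 170 CPM, and Igf1, its main target in liver, at 724, 377, 373 and 358 CPM. The Igf1 ratio was 0.521 at 12 weeks and 0.959 at 24 weeks.

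Glutathione S-transferases, which join glutathione to reactive compounds, moved in opposite directions. Gstp1 (ENSMUSG00000060803, chr19:4035407-4037985, minus strand) was among the most abundant RNAs of 24-week chow hepatocytes. It stood at 10730, 6024, 29413 and 4308 CPM, a ratio of 0.561 at 12 weeks (interval 0.503 to 0.627) and 0.146 at 24 weeks (0.140 to 0.153). In single cells its median share of UMIs was 0.872%, 0.499%, 2.64% and 0.362%. The quartiles over cells were 1.53% and 3.78% in 24-week chow and 0.191% and 0.572% in 24-week MASH. They describe the cells of 1 library each and not the spread between mice or preparations. Gstp2, its neighbour and near copy, had 3, 2, 122 and 4 UMIs. Gstp3, of the same family, did not follow, with 3, 16, 147 and 75 UMIs and a 24-week ratio of 1.14 (0.850 to 1.51). Gstp1 also occurs in T-like cells, at 409, 323, 826 and 324 CPM. Gstm3 stood at 200, 419, 98.1 and 1523 CPM and was 15.5-fold higher in MASH at 24 weeks (12.7 to 19.2). It was seen in 8.20% of 24-week chow and 59.6% of 24-week MASH hepatocytes. Gstm2 was 6.79-fold higher at 24 weeks, Mgst1, a microsomal transferase gene, 2.70-fold, and Gsta2 stood at a ratio of 0.270. Gstm1, the most abundant mu-class gene here, stood at 5066, 6493, 7147 and 8856 CPM. Of 19 members of the glutathione and antioxidant list with enough UMIs at 24 weeks, 3 were higher, 2 lower and 14 between. Of 17 at 12 weeks 1 was higher and 1 lower. Over all genes 7.71% were higher and 3.71% lower at 24 weeks, and 12.3% and 4.39% at 12 weeks. Among hepatocyte-leaning genes 13.1% were higher at 24 weeks and 13.3% at 12 weeks.

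The promoter window of Gstp1 is shown because its gene and Gstp2 were both lower in 24-week MASH. Capitals mark TGAGTCA, the letters of an AP-1 site, a binding sequence for Jun and Fos proteins.
Gstp1, chr19:4037863-4038162, minus strand: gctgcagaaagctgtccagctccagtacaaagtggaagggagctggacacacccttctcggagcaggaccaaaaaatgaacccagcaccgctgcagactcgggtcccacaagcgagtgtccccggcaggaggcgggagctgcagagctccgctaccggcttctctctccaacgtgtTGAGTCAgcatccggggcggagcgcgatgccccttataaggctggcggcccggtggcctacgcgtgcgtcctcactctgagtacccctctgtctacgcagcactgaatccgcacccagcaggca
Searched on both strands, TGAGTCA occurred 1 time in this window, 1 time in that of Gstp2, and in 5.20% of all 32851 windows. The windows of Gstp1 and Gstp2 were identical at 81.7% of aligned positions.

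**Figure D3:**
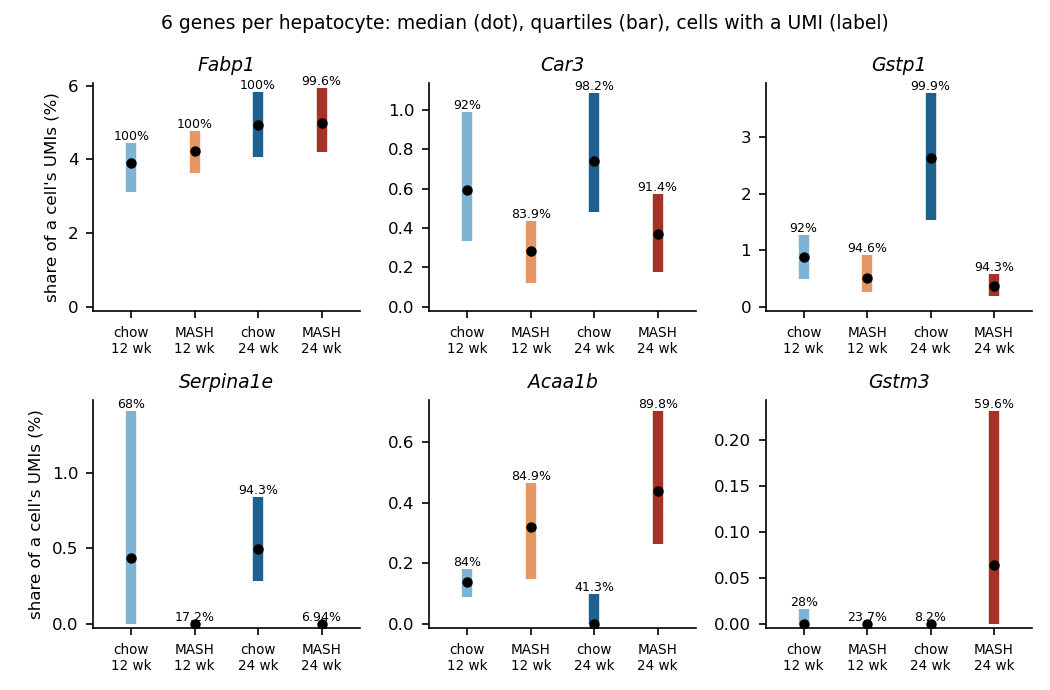
Share of a hepatocyte's UMIs held by 6 genes in each library: the dot is the median over cells, the bar runs from the lower to the upper quartile, and the label gives the percentage of cells with a UMI. Fabp1 is a gene of the rule, so its medians of 3.90% to 4.98% are constrained by the choice of cells and are no control. Gstp1 and Serpina1e lie lower in 24-week MASH and Acaa1b and Gstm3 lie higher.

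Genes that burn fatty acids were higher in 24-week MASH hepatocytes. Of 18 measured members of the oxidation and ketogenesis list, 9 were at least 2-fold higher and none lower, with a median log2 ratio of 1.02, against 0.12 over all genes. Acaa1b stood at 2545, 4372, 674 and 5114 CPM. It was 7.58-fold higher at 24 weeks (6.98 to 8.24) and 1.72-fold at 12 weeks (1.40 to 2.13). The chow libraries themselves stood apart in this gene, and the 24-week one was the lowest of the 4. In T-like cells the 24-week ratio was 2.66. Ehhadh, a peroxisomal enzyme gene, stood at 125, 345, 113 and 354 CPM and was higher at both weeks (2.77-fold and 3.14-fold). Bdh1, which interconverts ketone bodies, was 3.15-fold higher at 24 weeks, from 236 to 742 CPM. Ppara, the nuclear receptor that controls many of these genes, was 3.06-fold higher, from 56.8 to 174 CPM. Hadha, of the mitochondrial oxidation complex, was 2.75-fold higher. In T-like cells Bdh1 and Ppara had 24-week ratios of 0.835 and 0.677.

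Genes that make and store fat were also higher at 24 weeks, but not at 12. Of 14 measured members at 24 weeks 10 were at least 2-fold higher and 1, Elovl3, lower, with a median log2 ratio of 1.30. Scd1, the desaturase that makes oleate, stood at 549, 695, 205 and 918 CPM and was 4.47-fold higher at 24 weeks. Fads2, a desaturase of polyunsaturated fatty acids, was 5.07-fold higher, Gpam, which begins triglyceride synthesis, 3.72-fold, and Fasn, the fatty acid synthase, 3.29-fold. Plin2, a coat protein of lipid droplets, stood at 349, 433, 333 and 896 CPM and was 2.69-fold higher (2.34 to 3.10). Its T-like ratio was 2.54, and whether that came from free hepatocyte RNA or from the RNA of those cells was not tested. Thrsp, a lipogenic response gene, stood at 3718, 907, 1040 and 2388 CPM and had a ratio of 0.244 at 12 weeks and 2.30 at 24. At 12 weeks 3 of 5 members were lower and none higher, with a median of -1.18. Without the deepest hepatocytes the median was 0.36 over the 4 members that still had enough UMIs. Elovl3 (0.349) no longer had them, Me1 turned from 0.443 to 1.01, and Thrsp stayed at 0.269.

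Sterol genes showed no common direction at 24 weeks: of 7 measured members 1 was higher, 1, Idi1, lower and 5 between, with a median log2 ratio of -0.06. Hmgcs1, an early enzyme of the pathway, stood at 649, 120, 279 and 182 CPM, a ratio of 0.184 at 12 weeks (0.103 to 0.331) and 0.653 at 24 weeks. Idi1, which forms an isoprenoid building block, stood at 474, 106, 429 and 137 CPM (0.319 at 24 weeks). Both list members measured at 12 weeks were lower.

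**Figure D4:**
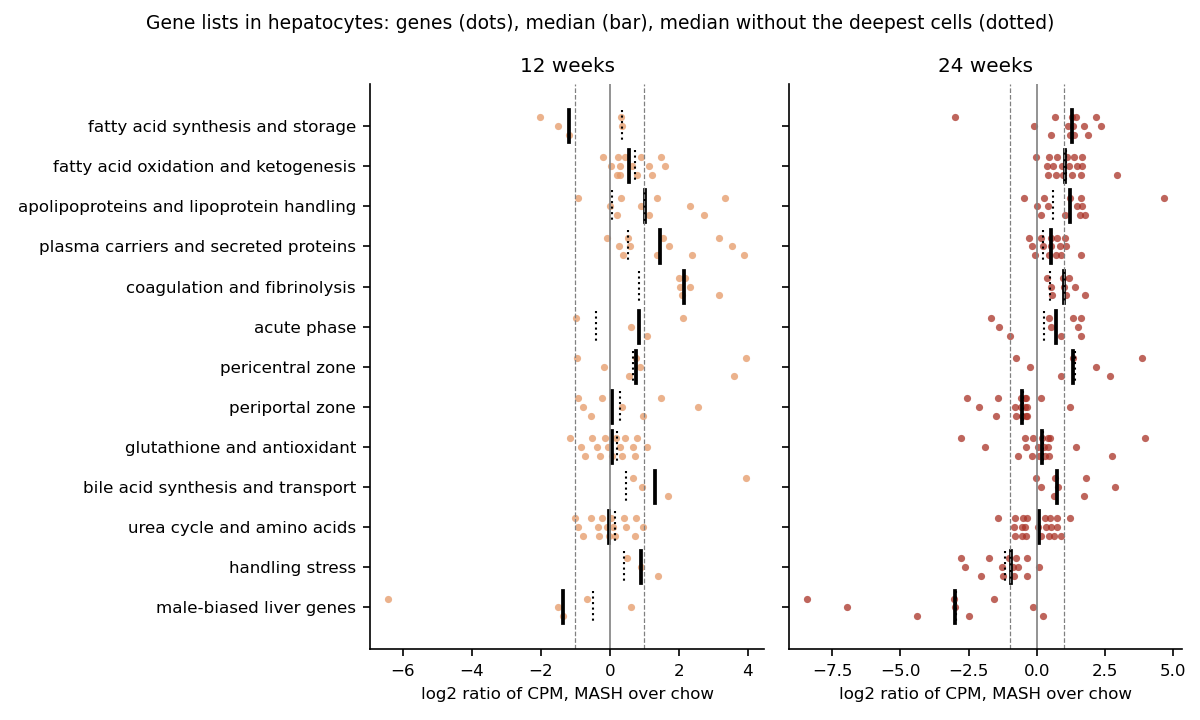
Log2 ratio of CPM, MASH over chow, for the genes of 13 lists with at least 50 UMIs (dots; ratios against 0 UMIs at their bound), with the list median (bar) and the median without the deepest hepatocyte of each library (dotted). Dashed lines mark 2-fold. Male-biased genes lie at a median of -3.01 and fatty acid synthesis at 1.30 at 24 weeks, and 12-week medians of secreted protein lists lie nearer to 0 without the deepest cells.

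Lipoprotein genes were higher in MASH hepatocytes, in part through a few cells. At 24 weeks 8 of 13 apolipoprotein genes were at least 2-fold higher and none lower (median log2 ratio 1.21), and 3 of 12 remained past 2-fold without the deepest cells (median 0.61). Apoa4, an apolipoprotein made in liver under fat load, had 0, 28, 5 and 57 UMIs and was 25.4-fold higher at 24 weeks (10.3 to 81.3). It was also higher in T-like cells, with a 24-week ratio of 41.0. Apoc2, the cofactor of lipoprotein lipase, stood at 200, 994, 230 and 701 CPM, with ratios of 4.98 and 3.05, and remained at 3.24 and 2.93 without the deepest cells. Apoa1, a gene of the rule and the main protein of high-density lipoprotein, stood at 2820, 7230, 993 and 3411 CPM. The deepest cells held 77.8% of its UMIs in 12-week MASH and 57.9% in 24-week MASH, and without them its ratios were 0.865 and 1.51. Apob, the structural protein of very-low-density lipoprotein, stood at 99.8, 1003, 28.4 and 90.0 CPM. A single cell held 97.2% of its 218 UMIs in 12-week MASH.

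Secreted plasma proteins followed that cell at 12 weeks. The deepest hepatocyte of 12-week MASH had 54016 UMIs, 6241 genes, a mitochondrial share of 2.21% and 2264 Alb UMIs, 4.19% of its total. It held 91.9% of the UMIs of Vtn (vitronectin), 89.0% of Ambp (a precursor of the alpha-1 microglobulin), 83.1% of Kng1 (kininogen) and 88.9% of Mug1 (a protease inhibitor of plasma). The 12-week ratio was 14.8 for Vtn, 11.7 for Ambp and at least 3.87 for Mug1, and Kng1 had 0 chow and 65 MASH UMIs. With every cell given the same weight the ratios of Vtn, Ambp, Kng1 and Mug1 were 3.24, 1.28, 1.23 and 0.664, and that of Apob was 1.81. The values of these 5 genes at 12 weeks thus rested on 1 cell. The list of plasma carriers had a 12-week median of 1.44 and one of 0.53 without the deepest cells. At 24 weeks 3 of its 15 members were higher, against 7.71% of all genes and 13.1% of hepatocyte-leaning genes, with a median of 0.52. Ahsg stood at 749, 2163, 367 and 1123 CPM, with ratios of 2.89 and 3.05 that were 2.01 and 2.13 without the deepest cells. Trf stood at 3369, 5090, 2425 and 4392 CPM. Of 9 coagulation genes measured at 24 weeks 5 were past 2-fold higher, and 1 of 9 was without the deepest cells. At 12 weeks a single coagulation gene had enough UMIs without those cells. C3, the central complement protein, was 19.7-fold higher at 12 weeks with 93.1% of its MASH UMIs in that cell. Hp (haptoglobin), which binds free haemoglobin, stood at 549, 2398, 174 and 493 CPM, and 1 cell held 96.0% of the 12-week MASH UMIs.

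Albumin message also differed between hepatocytes with more and with less mitochondrial RNA, again in part through single cells. In 12-week MASH the 23 hepatocytes with at least 1% mitochondrial UMIs had 32143 CPM of Alb and 16543 of Apoa1, and the 70 others had 7254 and 2179. Without the deepest cell, which held 70.7% of the UMIs of the 23, these were 8574 CPM of Alb and 1831 of Apoa1, so the gap in Apoa1 was gone. In 24-week MASH 39 such cells had 13481 CPM of Alb and 12112 of Apoa1, or 11387 and 2703 without the deepest cell, and 206 others had 7314 and 1253. In 24-week chow the 116 cells over 1% and the 713 under it had 8575 and 7665 CPM of Alb and 990 and 994 CPM of Apoa1. Alb went the other way in 12-week chow, at 1054 CPM in 2 cells over 1% and 5211 in 23 under it. Gstp1 stood at 6518 and 5756 CPM over and under 1% in 12-week MASH, at 31455 and 29144 in 24-week chow and at 5650 and 3976 in 24-week MASH. In 12-week chow it stood at 7025 and 11013.5 CPM.

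Acute phase genes showed no common direction. At 24 weeks 4 of 10 members were higher (Serpina3m 3.09-fold, Cp 3.08-fold, Hp 2.83-fold and Hpx 2.52-fold), and without the deepest cells 1 of 8 was, the Hp ratio being 1.54. Over all genes 7.71% were higher at 24 weeks and 3.71% lower. Mt1 and Mt2 were lower. Mt1, a metallothionein that binds zinc and copper, stood at 49.9, 36.8, 1167 and 368 CPM, a ratio of 0.315 at 24 weeks (0.268 to 0.369). It was seen in 8% and 4.30% of 12-week hepatocytes, chow and MASH, and in 52.7% and 24.1% at 24 weeks. Hamp, the gene of the iron hormone hepcidin, stood at 499, 764, 1293 and 652 CPM (0.504 at 24 weeks). Serpina3k, a plasma serpin gene, was lower at both weeks, at 1023, 451, 685 and 276 CPM (ratios 0.441 and 0.403), with a 12-week ratio of 0.501 without the deepest cells.

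Genes of the central zone were higher and several portal genes lower in 24-week MASH than in 24-week chow. Of 7 pericentral genes measured at 24 weeks 4 were at least 2-fold higher and none lower (median log2 ratio 1.34). Aldh3a2, a fatty aldehyde dehydrogenase gene, stood at 225, 327, 34.8 and 499 CPM and was 14.3-fold higher (10.1 to 20.7), with a T-like ratio of 1.03. With 24-week chow limited to hashtags 1 to 4 it was 4.97-fold higher. Cyp2e1 stood at 1298, 2356, 121 and 781 CPM and was 6.46-fold higher (5.28 to 7.93), or 2.59-fold with that limit on chow. The chow libraries themselves stood apart in Aldh3a2 and Cyp2e1, and 24-week chow was the lowest of the 4 libraries. In Cyp2e1, 12-week chow stood above 24-week MASH. Rgn, a calcium-binding enzyme gene, was 2.54-fold higher. Of 17 periportal genes 4 were lower and 1 higher (median -0.55). Etnppl was 5.93-fold lower at 24 weeks, from 206 to 34.8 CPM. Hal, which degrades histidine, was 4.32-fold lower, from 769 to 178 CPM, but stood at 74.9 CPM in 12-week chow. Gls2, the liver glutaminase, stood at a ratio of 0.373 and Sdsl at 0.352. Cps1, of the urea cycle, went the other way, at 250, 212, 171 and 399 CPM (2.33 at 24 weeks). At 12 weeks the median was 0.75 over 7 pericentral and 0.06 over 8 periportal genes. Pck1, the gluconeogenic enzyme, stood at 200, 1164, 1910 and 1409 CPM. Its 12-week ratio was 5.83, or 1.92 with a rule minimum of 2%.

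The balance of central and portal genes also differed among the hepatocytes of a library. Glul, glutamine synthetase, marks the cells next to the central vein. It was seen in 6, 19, 31 and 59 hepatocytes. In these the other pericentral genes had 1.34, 2.30, 0.272 and 0.481 UMIs for each periportal UMI, and in hepatocytes without a Glul UMI 0.272, 0.344, 0.116 and 0.369. The ratio was thus higher in Glul-positive cells of all 4 libraries. The periportal list alone stood at 5369, 4428, 14977 and 12588 CPM in Glul-positive cells. In cells without Glul it stood at 9845, 11637, 17843 and 12083.5 CPM, so in 24-week MASH it was not lower with Glul. The deepest cells of both 12-week libraries had Glul, and without them the Glul-positive ratios were 1.12 in chow and 0.875 in MASH. Cells with Glul also held more UMIs. Their medians were 1914, 1100, 1501 and 2200, and those of cells without it were 720, 916, 952 and 1168. Over all hepatocytes the ratio was 0.666, 0.991, 0.123 and 0.413. Thinned to 500 UMIs, Glul was seen in 2.17% of 24-week chow hepatocytes and 2.17% of T-like cells, and in 24-week MASH in 11.4% and 2.91%. Unthinned, 18.0% to 32.5% of T-like cells had a Glul UMI, and how much of this is their own RNA was not tested.

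**Figure D5:**
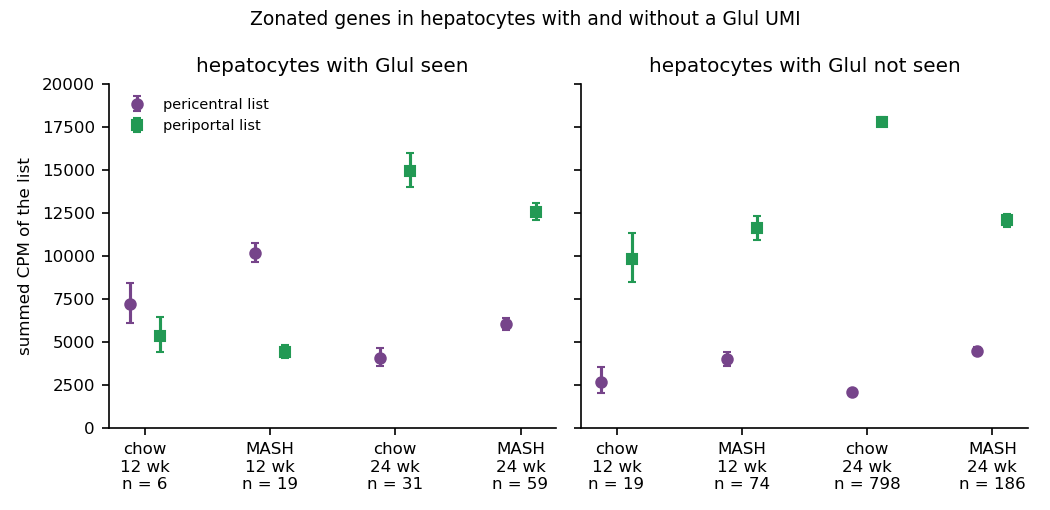
Summed CPM, with Poisson 95% intervals, of the pericentral list without Glul and of the periportal list in hepatocytes with and without a Glul UMI, by library. In 12-week MASH the pericentral list is at 10182 CPM in the 19 cells with Glul (6638 without the deepest) and 4003 CPM in the 74 without. In 24-week MASH these values are 6057 and 4458 CPM.

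Bile acid genes measured at 24 weeks were higher or between. Slco1b2, which takes bile acids and drugs up from blood, stood at 25.0, 382, 14.7 and 106 CPM and was 15.3-fold higher at 12 weeks (2.67 to 612, from 1 chow UMI) and 7.25-fold at 24 weeks (4.08 to 13.6). Its 12-week ratio was 1.43 with every cell weighted the same. Hsd3b7, an enzyme of bile acid synthesis, stood at 74.9, 239, 67.8 and 227 CPM, with ratios of 3.20 and 3.35. Nr0b2 (SHP), a repressor of that synthesis, was 3.51-fold higher at 24 weeks, from 51.3 to 180 CPM. Ces1c, a carboxylesterase gene, had ratios of 3.61 and 6.69, and Rnase4, a secreted ribonuclease gene, 3.22 and 5.32. Of these, the 12-week MASH UMIs lay mostly in the deepest cell, 87.8% for Ces1c and 92.0% for Rnase4. Of urea cycle and amino acid genes 20 of 22 lay within 2-fold at 24 weeks, against 2747 of 3101 of all genes, and 16 of 17 at 12 weeks, against 664 of 797.

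Further genes were lower at both weeks or at 12 weeks. Car3, a carbonic anhydrase abundant in liver, stood at 8035, 2508, 8562 and 4249 CPM, with ratios of 0.312 and 0.496. Ethe1, a mitochondrial sulfur dioxygenase gene, stood at 449, 152, 402 and 178 CPM (0.338 and 0.442). Fabp5, a fatty acid binding protein gene, stood at 1422, 244, 308 and 219 CPM (0.171 at 12 weeks), whereas its T-like ratio was 2.05. Gnmt, a methyl group regulator, stood at 5515, 2729, 7068 and 3987 CPM (0.495 and 0.564).

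Genes of injury and of fetal liver were few in these cells. Anxa2, an annexin gene, had 0, 16, 9 and 84 UMIs and was 20.8-fold higher at 24 weeks (10.5 to 47.1). Its level in 24-week MASH hepatocytes, 172 CPM, lay below that of T-like cells, 302 CPM. S100a11 was 4.83-fold and Anxa5 3.46-fold higher, also at levels below those of other cells for S100a11. Cdkn1a, the cell cycle inhibitor p21, had 0, 55, 11 and 28 UMIs. H19, an imprinted RNA of fetal liver, was seen in 3 of 245 hepatocytes of 24-week MASH, with 214 UMIs, and in none of the other libraries. The deepest of them held 198 of these UMIs among 18751, with 965 Apoa1 UMIs and 7.20% mitochondrial UMIs, and 1 other held 14 among 589. The ratio was at least 159-fold and could not be given without the deepest cell. Igf2, Afp, Gpc3, Mki67 and Top2a had 0 UMIs in these 3 cells.

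Heat shock and immediate early genes, which respond to tissue handling, were lower in 24-week MASH than in 24-week chow hepatocytes. Of 14 measured members 7 were at least 2-fold lower and none higher (median log2 ratio -0.95). Dnajb1 stood at 25.0, 78.2, 425 and 61.3 CPM (0.144 at 24 weeks), Hspa1b at 25.0, 18.4, 229 and 36.8 CPM (0.161) and Egr1 at 0, 41.4, 365 and 87.9 CPM (0.241). The T-like ratios of these 3 genes were 0.744, 0.622 and 1.06. With the 24-week chow cells limited to hashtags 1 to 4 (18 hepatocytes), none of 7 members was past 2-fold and the median was 0.20.

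The study examined the urokinase receptor uPAR, which is encoded by Plaur and which anchors plasminogen activation at the cell surface. Hepatocytes had 0, 0, 5 and 2 Plaur UMIs. It was seen in 0 of 25 and 0 of 93 hepatocytes at 12 weeks, which allows a share of cells with a UMI of up to 12% and 3.23% (3 counts of the total) and sets no limit on cells expressing it. It was seen in 0.603% and 0.816% at 24 weeks. In T-like cells, which are deeper, it was seen in 10.2%, 16.5%, 11.1% and 15.1%. Thinned to 500 UMIs the shares were 0%, 0%, 0.362% and 0.408% of hepatocytes and 1.65%, 1.60%, 1.41% and 1.32% of T-like cells. T-like cells can express Plaur themselves, so their level is not one of free RNA. Plau (urokinase) had 0 UMIs in all hepatocytes. Plg (plasminogen), which is made by hepatocytes, stood at 25.0, 221, 33.0 and 75.7 CPM and was 2.29-fold higher at 24 weeks. With only hepatocytes under 1% mitochondrial UMIs that ratio was 0.957.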

How the data were processed

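The data are 4 libraries of the 10x Genomics 5′ method, 1 for each group. The deposited matrices hold raw counts (UMIs per gene and barcode, with hashtag antibodies), made by the authors with Cell Ranger 5.0.1, and 4 for 12-week MASH, per the file headers. Of genome builds, mm10 and GRCh38 are listed in the processing notes of the submitters, with no role stated. A library holds 53679442 to 107163027 gene UMIs. The members and gene lists were chosen with earlier results of these data known.

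UMIs were summed over hepatocytes and divided by their gene UMIs (CPM). Ratios are MASH over chow with exact conditional binomial intervals, shares have Clopper-Pearson intervals, and share ratios have log-normal ones. Against 0 UMIs a ratio was bounded with 3 counts over the group. No test was run. Named genes are the largest ratios of each list, leaning genes past 2-fold the same way at both weeks, with up to 10 in each direction ranked by the smaller log2 ratio, and 5 leaning genes in each direction at each week ranked by the interval bound nearest to 0. Genes of a list past its first 4, the copies Gstp2, Gstp3, Serpina1a, Serpina1b and Serpina1d, and Plaur and Plau, were chosen after their values were seen. The minimum of 2%, the removal of the deepest cells and the limit of 1% mitochondrial UMIs were also chosen after seeing the data. The procedure was tested on simulated pooled counts without spread between cells. That test does not cover genes whose UMIs lie mostly in 1 cell. Gene positions came from GENCODE by Ensembl ID. The software was Python 3.11.15, numpy 2.4.6, pandas 2.3.3, scipy 1.17.1, scanpy 1.11.5 and Biopython 1.88. Alternatives covered the rule's minimum, depth, mitochondrial share, doublets, hashtags, cell weights, thinning, the median ratio and the UMI minimum of a gene. The main values, those under the rule as stated, were taken without a split by hashtags. Limits by hashtag were used only as alternatives, and several of their values are given in the Results beside the main ones. Barcodes shared between libraries were 487 to 732 filtered cells a pair and 0 hepatocytes, over the 3 libraries whose barcodes could be named.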

Additional observations from a re-analysis of the deposited data

Results flagged for a closer look

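The hepatocyte share had a ratio of 3.98 at 12 weeks and 0.404 at 24 weeks, and so differed in direction between the weeks. The 12-week ratio compares libraries whose matrices held different pools of barcodes. The median log2 ratio of fatty acid synthesis and storage genes was -1.18 at 12 weeks and 1.30 at 24 weeks. Thrsp had ratios of 0.244 and 2.30. Hspb1, a small heat shock protein gene, had ratios of 2.63, from 4 chow and 57 MASH UMIs, and 0.416. Ang, a secreted ribonuclease gene, had ratios of 0.455 and 3.74. The deepest cell held 86.7% of the 15 Ang UMIs of 12-week chow. With 1 library a group the difference between weeks was not tested.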

How the results depend on the processing

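No paired analysis was possible because each group is 1 library and no replicate number joins them. The share ratio at 12 weeks was 0.394 with a minimum of 2% and 1.51 over cells with a single hashtag. At 24 weeks it was 1.74 with a minimum of 10%, 0.511 with at least 1000 UMIs and 0.770 over single-hashtag cells. It was 3.18 and 7.95 with chow limited to hashtags 1 to 4 (18 hepatocytes) or 5 to 8 (5 hepatocytes). These last alternatives restrict chow only, and few hepatocytes carried a clear hashtag. The counts of genes higher and lower at 12 weeks were 181 and 122 with a minimum of 2%, 50 and 21 without the deepest cells, 35 and 15 under 1% mitochondrial UMIs, and 14 and 11 after thinning to 500 UMIs. They were 319 and 136 over genes with at least 20 UMIs and 43 and 14 with at least 100. At 24 weeks they were 46 and 28 with a minimum of 10%, 41 and 35 over single-hashtag cells, 572 and 284 with at least 20 UMIs and 107 and 57 with at least 100. At 24 weeks 226 genes were lower with a minimum of 2%, 68 with hashtags 1 to 4, and 76 were higher after thinning. Fewer cells, fewer UMIs or another UMI minimum change how many genes enter these counts. Fatty acid synthesis at 12 weeks turned to a median of 0.037 with a minimum of 2% and 0.36 without the deepest cells, and plasma carriers to -0.10 under 1% mitochondrial UMIs. At 12 weeks Ang turned to 1.38 with a minimum of 2%, and Me1 to 1.01 and Apoa1 to 0.865 without the deepest cells. Apoa1 was 0.737 under 1% mitochondrial UMIs and 0.994 with equal cell weights, where F2 was 0.895, Hp 0.480 and Mug1 0.664. At 24 weeks Vtn was 0.734, Ambp 0.820 and Plg 0.957 under 1% mitochondrial UMIs, Vtn was 0.945 with equal weights, and Hspb1 was 1.53 with hashtags 1 to 4. The cause of these turns was not tested. Of the other values, 1828 gene ratios and 477 list medians stayed within the interval of the reported value and 364 and 98 moved beyond it. Of those that moved, 37 gene ratios and 19 list medians that had lain within 2-fold crossed the point of no difference, among them Hamp and Ttr. No gene values could be given at 12 weeks with a minimum of 10% (1 MASH and 0 chow cells) or for single-hashtag cells (8 and 6 cells), or for hashtags 5 to 8. Depth also limits the 12-week values, since 25 chow hepatocytes held 40074 UMIs in all.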
